A study of Rattus norvegicus with 17 samples.

Results

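Axon guidance receptors and ligands were examined in RNA of hippocampal synaptosomes, the pinched-off nerve terminals that are collected from homogenized tissue by differential centrifugation. The genes were taken by symbol: the Unc5 receptors, the deleted in colorectal cancer gene Dcc, the netrins, the Slits and their Robo receptors, the semaphorins with the plexins and neuropilins, and the ephrins with the EphA and EphB receptors, without the Slitrk genes. Of 71 rat genes with such a symbol, 55 had a probe on the Illumina RatRef-12 array and 34 were detected on every array of at least 1 group, among 10457 probes of 22226 that met the same condition. The rats were male Fischer 344 x Brown Norway (F1) hybrids without any transgene or treatment. The adult group held 5 rats aged 12 months, and all other rats were 28 months old and were divided by Morris water maze performance into 5 aged cognitively intact and 7 aged cognitively impaired animals. Not every aged intact rat of the study was put on an array, and the water maze alone defined these groups. Each array held the RNA of 1 rat, so that the spread between arrays includes the spread between animals. All adult arrays lay on 1 slide and all aged arrays on another, so that age and slide cannot be told apart, while the intact and the impaired rats shared their slide.

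Guidance cues steer growing axons during development by attracting or repelling the growth cone. Netrins attract through Dcc and repel through Unc5 receptors, Slits repel through Robo receptors, semaphorins act on plexins, with neuropilins as partners for most secreted forms, and ephrins are bound to the cell surface and signal in both directions with Eph receptors. In the mature hippocampus many of these proteins remain at synapses, where Eph receptors and ephrins in particular are known to take part in the shape of dendritic spines and in synaptic plasticity.

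Levels are given as log2 normalized signal, on which a difference of 1 is a doubling. A gene was called changed where the adjusted p of the limma fit over all 10457 probes was below 0.05. Mean signal per array ranged from 313 to 617 and detected probes from 10440 to 11565. Replicates are numbered here in the order of the samples within each group. For adult and aged intact rats this differs from the number in the sample titles, and adult replicate 4 is titled Adult 8. Adult replicate 4 stood apart from the other arrays: its mean correlation with them was 0.972, against 0.984 to 0.992 for the rest, and it had the fewest detected probes and the fewest detected guidance genes, 31 against 35 to 40. It gave the lowest of the 17 values for 12 of the 34 genes and the highest for 5. Leaving it out moved the aged difference of 21 of the 34 genes by over 1.5 times or turned its sign. Of 18 neuron and synapse markers that were tested, 17 were detected on every array, but all 11 oligodendrocyte, all 8 astrocyte and 12 of 14 microglia markers were as well, so that the fraction was not free of the RNA of other cells. In bulk RNA, fewer cells or terminals of a type and less RNA per cell cannot be told apart.

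Of the receptors and of the ligands alike, most were detected on at least 1 array. Among receptors, 19 of 25 with a probe were tested and 5 were detected on no array (Epha1, Epha2, Ephb3, Robo3 and Robo4). Among ligands, 15 of 30 were tested, 6 were detected on no array (Efna1, Efna4, Efna5, Ntn1, Sema3g and Sema4c) and 9 were detected on some arrays without filling any group. All 4 Unc5 receptors and all 5 plexins with a probe passed, whereas 1 of 4 ephrin-A ligands and 3 of 7 class 3 semaphorins did. Of the 34 tested genes, 31 were detected on all 17 arrays. The other 3, Dcc, Efna2 and Ntn3, were detected on 3, 4 and 4 of 5 adult arrays and on every aged array; since they entered through the aged groups, their differences from adults are described and support nothing. A further gene outside the test, Sema3d, was detected on 8 of 12 aged arrays and on no adult array, with levels of 4.44 to 4.80 in adults and 4.46 to 5.43 in aged rats, which overlapped. Efna3, Epha3, Epha6, Epha8, Epha10, Ephb4, Ntn4, Plxna1, Plxna4, Plxnb1, Plxnc1, Sema4a, Sema4b, Sema4d, Sema6a and Slit1 were not analysed here.

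Of the 34 guidance genes, 1 changed between adult and aged rats. Unc5c, a netrin receptor that mediates repulsion, was lower in aged rats by 0.26 on the log2 scale, that is at 0.837 of the adult level. No guidance gene was called higher in aged rats, while 0.851% of all probes were called higher and 0.296% lower. At an unadjusted p below 0.05 there were 11 genes, 4 higher and 7 lower, which is 32.4% of the 34 against 18.6% of all probes. Over the 31 genes detected on every array, without Dcc, Efna2 and Ntn3, there were 10, 3 higher and 7 lower, or 32.3%, with 16 differences above 0 and 15 below and a median of 0.02. The 34 differences ranged from -0.32 (Ephb1) to 0.43 (Unc5a), 19 were above 0 and 15 below, and their median was 0.04 beside -0.02 over all probes. Without adult replicate 4 no gene was called, 7 genes had an unadjusted p below 0.05, against 12.1% of the probes then tested, and the median was 0.0044, or -0.03 over the 31 genes.

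**Figure D1:**
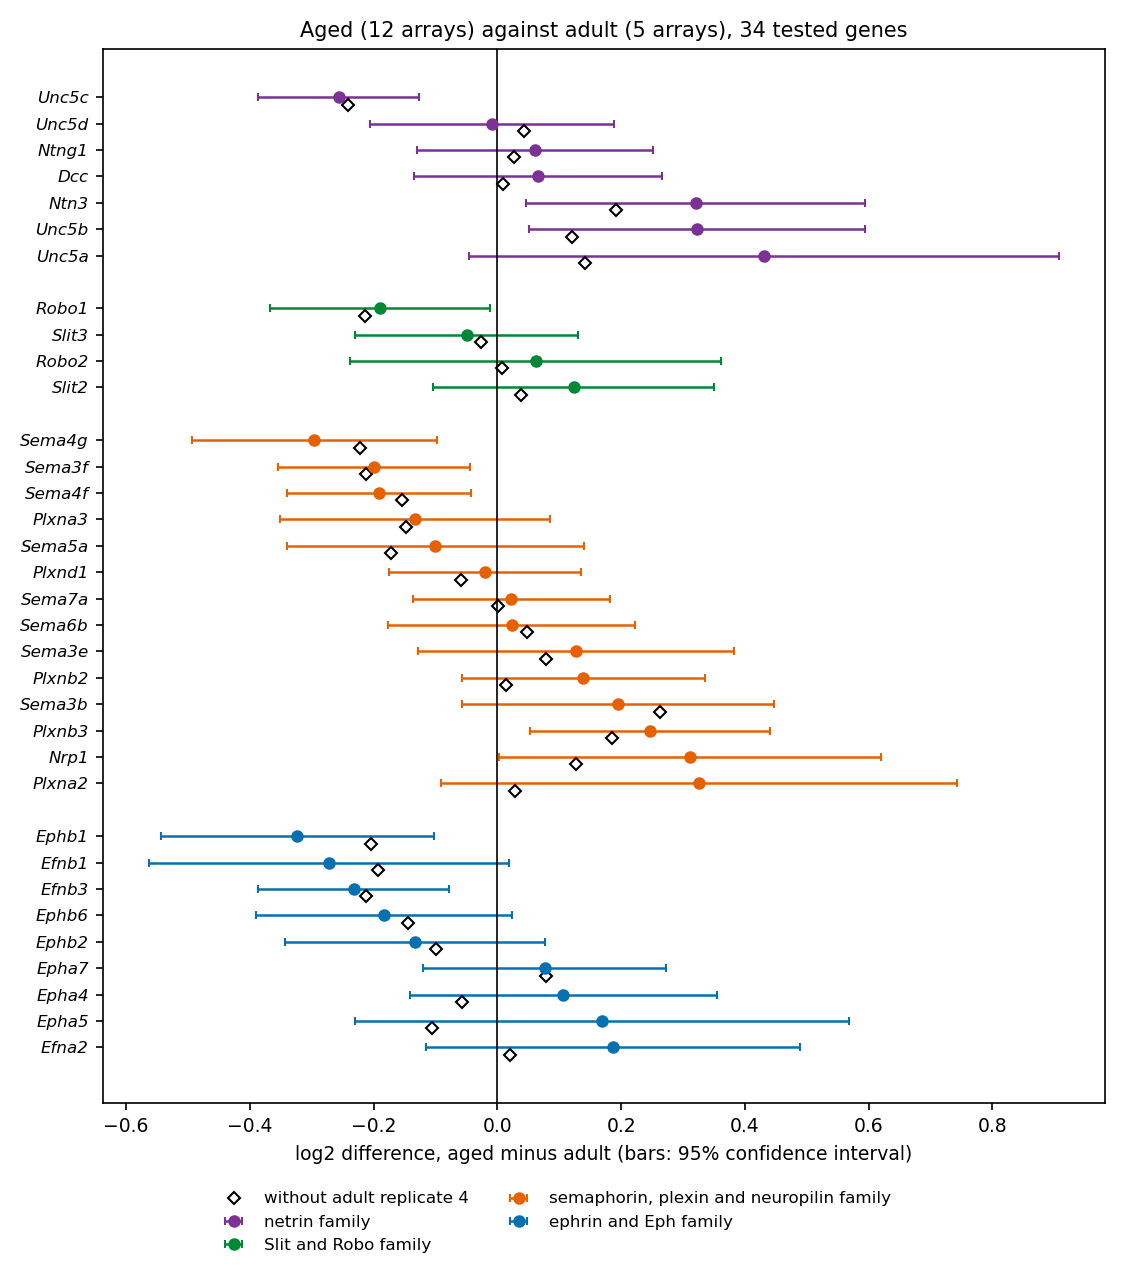
Log2 difference between 12 aged and 5 adult arrays (horizontal axis) for the 34 tested guidance genes, grouped by family; filled circles are the limma estimates with 95% confidence intervals, and open diamonds are the estimates without adult replicate 4. Most differences above 0 shrank without that array (Unc5a from 0.43 to 0.14), whereas Unc5c stayed close to its value (-0.26 and -0.24).

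In the netrin family, the 4 Unc5 receptors did not share a direction. The adult values of Unc5c were 9.66, 9.61, 9.77, 9.76 and 9.69. The aged intact values were 9.40, 9.40, 9.59, 9.52 and 9.50, and the aged impaired values ran from 9.27 through a median of 9.39 to 9.53. All 12 aged arrays thus lay below the lowest adult array, a separation shown downward by 0.325% of all probes, and Unc5c was the only one of the 34 genes with it. No guidance gene had every aged array above every adult array, as 0.593% of all probes did. The difference was -0.26 ± 0.062 (SE; 95% confidence interval -0.39 to -0.13), with an adjusted p of 0.0485 in the limma fit.

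The call on Unc5c stood at the edge of the threshold. In all 17 fits that left out 1 array each, the difference remained between -0.28 and -0.24 and the adjusted p rose to between 0.0538 and 0.139. Compared separately with adults, Unc5c was lower by 0.21 in aged intact rats (adjusted p = 0.221) and lower by 0.29 in aged impaired rats (adjusted p = 0.0621). The aged groups differed by -0.07, with a 95% confidence interval of -0.22 to 0.07. Without quantile normalization the Unc5c difference was -0.15 when arrays were scaled to a common median, where the median of all probes lay at 0.08, and -0.05 with no scaling, where it lay at 0.18.

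**Figure D2:**
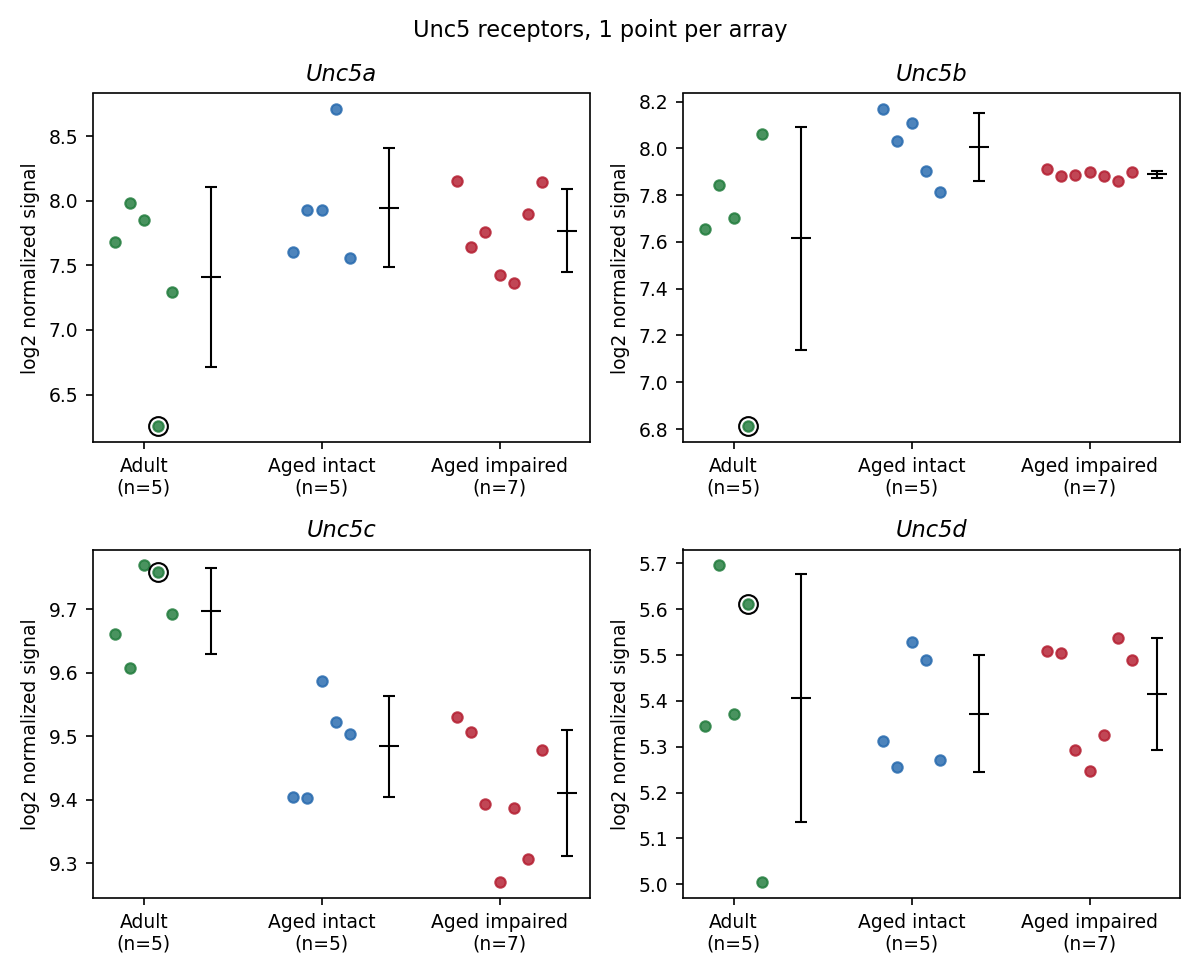
Log2 normalized signal (vertical axis, its own range in each panel) of the 4 Unc5 receptors by group; each point is 1 array, bars are mean ± SD and the ring marks adult replicate 4. For Unc5c all aged arrays lie below all adult arrays, while the low adult mean of Unc5a and Unc5b comes with the ringed array at 6.25 and 6.81.

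Unc5a, the other end of the range, had the widest spread of all guidance genes, 2.46 from the lowest to the highest array. Its adult values were 7.68, 7.98, 7.85, 6.25 and 7.29, and its aged intact values were 7.60, 7.93, 7.93, 8.71 and 7.56. The aged impaired values ran from 7.36 through 7.76 to 8.16, and all 3 groups overlapped. The difference of 0.43 ± 0.23 (SE) between aged and adult rats did not pass (adjusted p = 0.309) and was 0.14 without adult replicate 4.

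Unc5b was close to uniform in aged impaired rats, where 7 arrays lay between 7.86 and 7.91 (SD 0.02). Adult values were 7.66, 7.84, 7.70, 6.81 and 8.06, and aged intact values 8.17, 8.03, 8.11, 7.90 and 7.82, with overlap between the groups. The aged difference of 0.32 had an adjusted p of 0.188, and without adult replicate 4 it was 0.12. Unc5d, which lies outside the rule by which genes were named, differed by -0.01 (95% confidence interval -0.21 to 0.19), with adult arrays between 5.00 and 5.70 and aged arrays between 5.25 and 5.54, and by 0.04 without adult replicate 4.

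Dcc, the attractive netrin receptor and likewise outside that rule, stood near the limit of detection, at 5.13 ± 0.20 in adults (SD, n = 5) and 5.20 ± 0.17 in aged rats (n = 12), a difference of 0.07 that was 0.01 without adult replicate 4. Of the ligands, Ntn1 was detected on no array. Ntn3 had adult values of 5.07, 5.50, 5.16, 4.56 and 5.12 and aged values from 5.11 through 5.38 to 5.80, a difference of 0.32 (adjusted p = 0.195) that was 0.19 without adult replicate 4. Ntng1, a netrin-G that is anchored in the membrane and does not bind Dcc, was at 9.22 ± 0.18 in adults and 9.28 ± 0.16 in aged rats. Its relative Ntng2 was detected on 1 of 5 arrays in adults, 4 of 5 in intact and 2 of 7 in impaired aged rats and was not tested.

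In the Slit and Robo family, no gene was called in any comparison, and Robo1 had the smallest p between the aged groups of all 34 genes. Adult values of Robo1, a receptor for the repellent Slits, were 5.70, 5.85, 5.49, 5.61 and 5.87. The aged intact values of 5.79, 5.63, 5.55, 5.61 and 5.79 fell in the adult range. In aged impaired rats the lowest value was 5.22, the median 5.38 and the highest 5.76, and 6 of the 7 arrays lay below every adult and every aged intact array. Aged impaired rats were lower than aged intact rats by 0.27 (95% confidence interval -0.47 to -0.08; unadjusted p = 0.00821), but the adjusted p was 0.995. Against adults the difference was -0.30 in aged impaired rats (adjusted p = 0.119) and -0.03 in aged intact rats. The level of Robo1 was low, with a mean of 5.57 over all arrays beside 5.18 for Dcc, though it was detected on all 17. For all aged rats against adults it differed by -0.19, and by -0.02 with the plain background estimate described below.

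The other Robo receptors showed no such separation. Robo2 was at 7.00 ± 0.20 in adults and 7.07 ± 0.33 in aged rats, and its difference of 0.06 was 0.00 (-0.00077) without aged intact replicate 5, which at 7.76 was its highest array, and 0.01 without adult replicate 4. Robo3 and Robo4, the latter known from endothelium, were detected on no array. Of the ligands, Slit2 was at 7.98 ± 0.22 and 8.10 ± 0.21 in adult and aged rats, and its difference of 0.12 was 0.04 without adult replicate 4. Slit3 was at 8.91 ± 0.13 and 8.86 ± 0.16, and its difference of -0.05 was -0.03 without that array. Under median scaling and without normalization Slit3 differed by 0.06 and 0.16, which in both cases was -0.02 relative to the median of all probes.

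Among the semaphorins, 3 of the 8 tested ligands had an unadjusted p below 0.05 for aged against adult rats, against 18.6% of all probes. All 3 differences were below 0, while among all probes 848 of those passing were higher and 1101 lower. With no normalization between arrays, where the median of all probes lay at 0.18, the differences of Sema4f and Sema3f were 0.04, or -0.14 and -0.15 relative to that median. Sema4f, a transmembrane semaphorin, had adult values of 11.30, 11.52, 11.26, 11.55 and 11.38 and aged values from 10.97 through 11.20 to 11.36. Of the 12 aged arrays, 9 were below the lowest adult array. The difference was -0.19 (95% confidence interval -0.34 to -0.04; adjusted p = 0.163). Without adult replicate 4, the highest array of Sema4f, the difference was -0.15 (unadjusted p = 0.0509 in the limma fit). Sema4f was even across aged intact rats, at 11.22, 11.13, 11.21, 11.20 and 11.20.

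Sema4g, of the same class, had adult values of 7.44, 7.28, 7.10, 7.61 and 7.13 and aged values from 6.71 through 7.02 to 7.30, again with 9 aged arrays below the lowest adult array. Its difference was -0.30 (adjusted p = 0.115), and -0.22 without adult replicate 4, the highest array. Sema3f, a secreted semaphorin that binds Nrp2, had adult values of 7.06, 7.28, 7.17, 7.06 and 6.99 and aged values from 6.74 through 6.91 to 7.07, a difference of -0.20 (adjusted p = 0.164). Between aged impaired and aged intact rats Sema4f, Sema4g and Sema3f differed by 0.03, -0.02 and 0.01.

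No other semaphorin had an unadjusted p below 0.05 for aged against adult rats. Sema7a, which is anchored in the membrane and acts through integrins, was at 10.55 ± 0.10 in adults and 10.57 ± 0.14 in aged rats. Sema3b and Sema6b, outside the naming rule, differed by 0.19 and 0.02, with adjusted p-values of 0.385 and 0.915 in the limma fit, and without adult replicate 4 Sema3b differed by 0.26 (adjusted p = 0.411; unadjusted p = 0.0494) and Sema6b by 0.05. Sema3e, the ligand of Plxnd1, and Sema5a were among the 4 genes with the lowest p for aged impaired against aged intact rats. Sema3e was 6.20 ± 0.18 in aged intact and 5.94 ± 0.24 in aged impaired rats, and Sema5a was 5.87 ± 0.20 and 5.65 ± 0.28. The groups overlapped for both genes, with differences of -0.26 (95% confidence interval -0.54 to 0.02) and -0.23 (-0.49 to 0.04). Against adults Sema3e differed by 0.28 in aged intact rats, which did not pass (adjusted p = 0.405), and by 0.02 in the impaired group. For all aged rats against adults Sema5a differed by -0.10, and by -0.17 without adult replicate 4. A second probe of Sema5a was detected on no array.

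Among the plexins and neuropilins, Plxnb3 and Nrp1 had an unadjusted p below 0.05 for aged against adult rats, both with a difference above 0. Plxnb3, a plexin that binds Sema5a and is expressed in the oligodendrocyte lineage of mice, had adult values of 8.43, 8.42, 8.45, 8.17 and 8.61. In aged intact rats it was at 8.56, 8.82, 8.77, 8.65 and 8.92, and in aged impaired rats it ran from 8.32 through 8.72 to 8.82, so that 8 of 12 aged arrays lay above the highest adult array. The difference was 0.25 (95% confidence interval 0.05 to 0.44; adjusted p = 0.167), and 0.19 (unadjusted p = 0.0649) without adult replicate 4.

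Plxnb3 is set here beside 11 oligodendrocyte markers. For aged against adult rats 7 of them lay above 0 and 4 below, from -0.14 to 0.52 with a median of 0.01, and 1, the myelin adhesion molecule Mag at 0.52, was called higher. Their mean log2 level was 9.91 to 10.3 in adults, 10.2 to 10.5 in aged intact and 9.99 to 10.3 in aged impaired rats, 10 of the 11 lay above 0 for aged intact against adult rats and all 11 below 0 for aged impaired against aged intact rats. The part of these cells in the Plxnb3 values was not tested.

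Nrp1, the co-receptor of class 3 semaphorins and of vascular endothelial growth factor, had adult values of 10.67, 10.85, 10.56, 9.76 and 10.64. It was at 10.75, 10.30, 10.88, 10.41 and 11.00 in aged intact rats and ran from 10.60 through 10.91 to 11.26 in aged impaired rats, with overlap of all groups. The difference of 0.31 (adjusted p = 0.265) was 0.13 without adult replicate 4. The highest value of Nrp1, 11.26, was in aged impaired replicate 4, and that array also had the highest mean level of microglia markers, 9.79 against 8.36 to 8.76 on the other aged arrays, and of endothelial and mural markers, 7.78 against 6.62 to 7.37. Without that array Nrp1 differed by 0.27 between aged and adult rats. Nrp2 was detected on 1 array.

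Microglia markers were the list with the most calls: 3 of 14 were called higher in aged rats (Itgam, P2ry12 and Ctss), against 0.851% of all probes, and all 14 lay above 0, with a median of 0.49. Their part in the values of the guidance genes was not tested. For Unc5c, aged impaired replicate 4 was the lowest array, at 9.27, and its difference was -0.24 without that array (adjusted p = 0.0598). That array also gave the lowest value of 9 of the 34 genes.

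The remaining plexins lie outside the naming rule. Plxna2, the receptor shared by class 3 and class 6 semaphorins, differed by 0.33 with adult replicate 4 at 6.56 and all other arrays between 7.65 and 8.44, and by 0.03 without it. Plxnb2, a receptor of class 4 semaphorins, behaved alike, with 7.70 on adult replicate 4, 8.12 to 8.42 on the other adult arrays and a difference that went from 0.14 to 0.01. Plxna3 and Plxnd1 differed by -0.13 and -0.02.

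**Figure D3:**
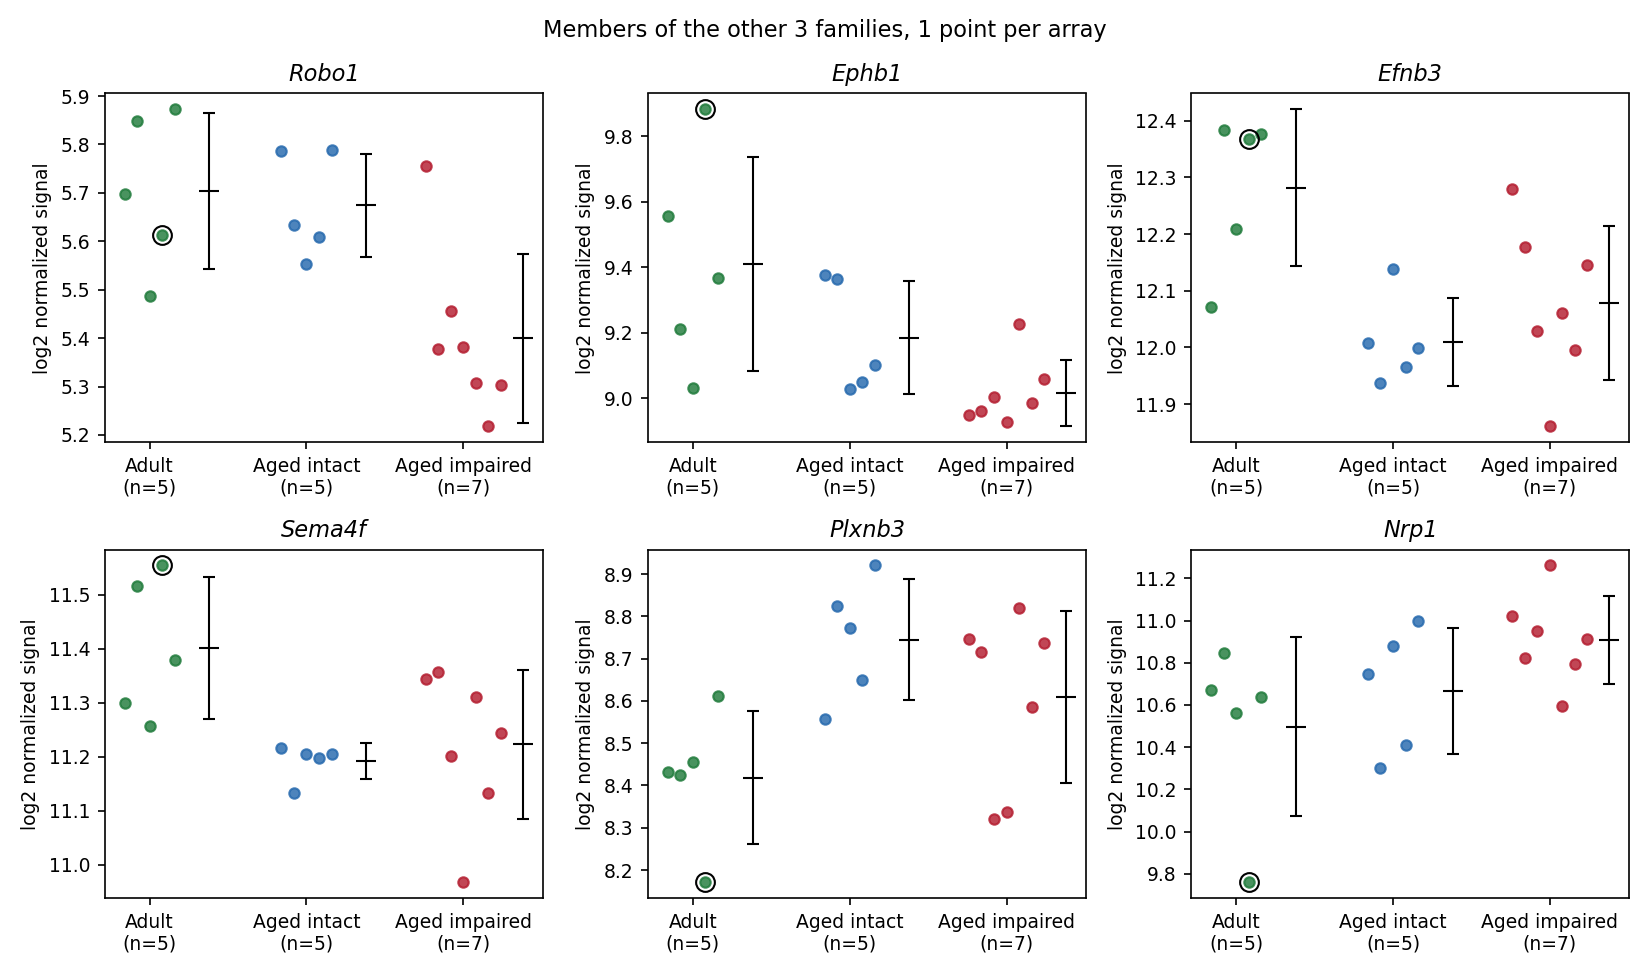
Log2 normalized signal (vertical axis, its own range in each panel) of Robo1, Ephb1, Efnb3, Sema4f, Plxnb3 and Nrp1 by group; each point is 1 array, bars are mean ± SD and the ring marks adult replicate 4. None of these genes was called; 6 of 7 aged impaired arrays of Robo1 lie below all adult and aged intact arrays.

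In the ephrin and Eph family, the B-type genes and the EphA receptors lay on opposite sides of 0 for aged against adult rats. All 5 tested B-type genes, the receptors Ephb1, Ephb2 and Ephb6 and the ligands Efnb1 and Efnb3, were below 0, and the 3 EphA receptors, Epha4, Epha5 and Epha7, were above 0. With no normalization between arrays Efnb3, Ephb2 and Ephb6 were above 0, but at -0.16, -0.11 and -0.15 relative to the median of all probes, which then lay at 0.18. None of these 8 genes passed the threshold, and whether the classes differ was not tested. Without adult replicate 4 the B-type differences remained below 0, from -0.21 to -0.10, while Epha4 and Epha5 went from 0.11 and 0.17 to -0.06 and -0.11.

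Efnb3, a transmembrane ephrin, had adult values of 12.07, 12.38, 12.21, 12.37 and 12.38. The aged intact values were 12.01, 11.94, 12.14, 11.97 and 12.00, and the aged impaired values ran from 11.86 through 12.06 to 12.28. The groups overlapped, with 8 of 12 aged arrays below the lowest adult array. The difference was -0.23 (95% confidence interval -0.39 to -0.08; adjusted p = 0.111) and was -0.27 in aged intact and -0.20 in aged impaired rats.

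Ephb1, a receptor tyrosine kinase for ephrin-B ligands, had adult values of 9.56, 9.21, 9.03, 9.88 and 9.37. In aged intact rats the values were 9.38, 9.37, 9.03, 9.05 and 9.10, and in aged impaired rats they ran from 8.93 through 8.99 to 9.23. The highest value was in adult replicate 4, and the difference of -0.32 (95% confidence interval -0.54 to -0.10; adjusted p = 0.121) was -0.20 without it. Efnb1 differed by -0.27 and ranged from 7.18 to 7.93 in adults and from 6.70 to 7.68 in aged rats. Ephb6, which lacks kinase activity, differed by -0.18 (adjusted p = 0.317), with adult arrays between 8.87 and 9.17 and aged arrays between 8.52 and 9.16.

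Ephb2, a receptor that is known to bind NMDA receptors at excitatory synapses, had the second smallest p between the aged groups. It was 6.29 ± 0.16 in adults, 6.28 ± 0.20 in aged intact and 6.07 ± 0.21 in aged impaired rats. The aged groups overlapped, with aged impaired values from 5.77 through 6.04 to 6.40 and aged intact values of 6.37, 6.02, 6.33, 6.55 and 6.15. Their difference of -0.22 had a 95% confidence interval of -0.45 to 0.01 and an adjusted p of 0.995.

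Epha4, a receptor that binds ephrins of both types, had adult values of 13.40, 13.26, 13.44, 12.49 and 13.16 and aged values from 13.12 through 13.19 to 13.51. Epha5, a receptor for ephrin-A ligands, had adult values of 11.18, 10.62, 10.79, 9.39 and 10.45 and aged values from 10.33 through 10.68 to 11.08. Apart from 1 aged array of Epha4, the aged arrays of both genes lay within the range of the adult arrays, and adult replicate 4 lay below all others. Outside the naming rule, Epha7 differed by 0.08 with and without that array, and Efna2, the 1 tested ephrin-A ligand, by 0.19 with it and 0.02 without.

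**Figure D4:**
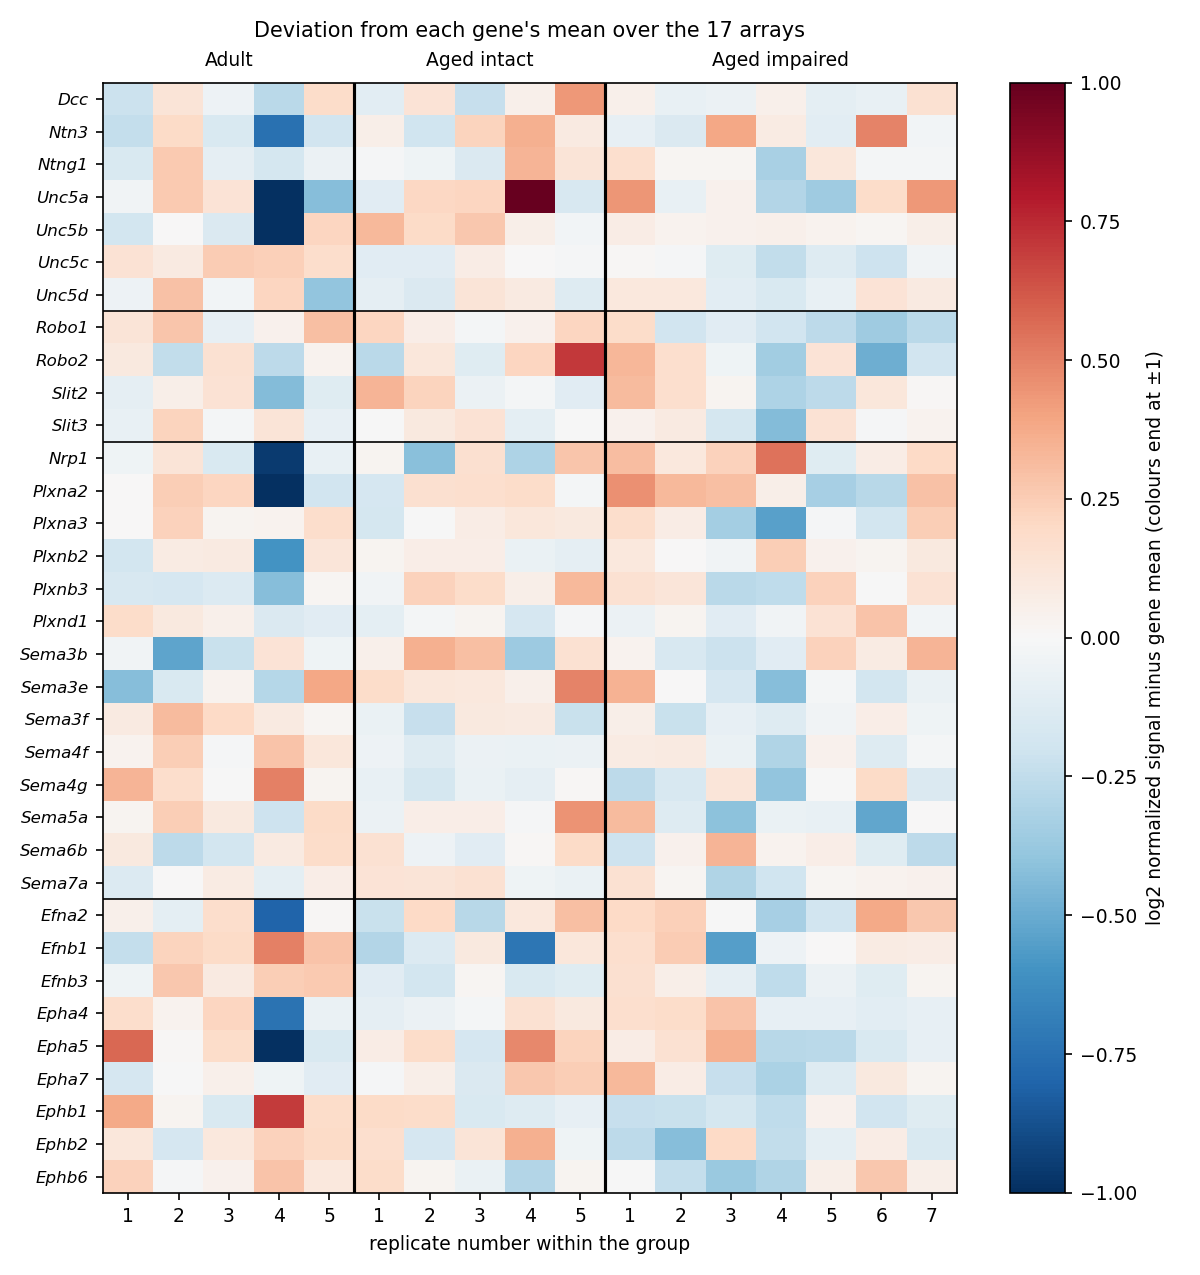
Log2 normalized signal minus the mean of the gene over the 17 arrays (colour, with the scale ending at -1 and 1) for the 34 tested guidance genes (rows, by family) on each array (columns, by group and replicate). Adult replicate 4 holds the deepest negative values, among them Unc5a, Unc5b, Nrp1, Plxna2 and Epha5, and Unc5c is above its mean on all adult arrays.

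Compared with adults separately, neither aged group had a called guidance gene. In aged intact rats, 0 of 34 were called in either direction, against 0.316% of all probes higher and 0.0478% lower. There, 9 of the 34 genes, with Ntn3 among them, had an unadjusted p below 0.05, against 13.7% of all probes. In aged impaired rats, 0 of 34 were called, against 0.421% of all probes higher and 0.0574% lower. Here too, 9 of the 34 genes, again with Ntn3, had an unadjusted p below 0.05, against 17.7% of all probes. Ntn3 entered the test through the aged groups, so that its place in both counts supports nothing. The 2 comparisons share their adult arrays. In aged intact rats the smallest p belonged to Efnb3, Plxnb3 and Unc5c, and in aged impaired rats to Unc5c, Ephb1 and Robo1. Unc5a differed by 0.53 in aged intact and 0.36 in aged impaired rats, Nrp1 by 0.17 and 0.41, Ephb1 by -0.22 and -0.39, and Efnb1 by -0.38 and -0.19. Without adult replicate 4 these differences were 0.24 and 0.07 for Unc5a, -0.01 and 0.23 for Nrp1, -0.11 and -0.27 for Ephb1, and -0.30 and -0.12 for Efnb1.

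Between aged impaired and aged intact rats, which asks whether guidance genes followed water maze performance at the same age and on the same slide, 0 of 34 genes were called, as were 0% of all probes in either direction. At an unadjusted p below 0.05 there was 1 gene, Robo1, against 3.58% of all probes. The 34 differences ranged from -0.27 (Robo1) to 0.24 (Nrp1), 11 were above 0 and 23 below, and their median was -0.06 beside 0.00 (-0.00024) over all probes. Under median scaling 19 were above 0 and 15 below, but the median of all probes then lay at 0.06, and the median of the 34 genes was -0.05 relative to it. All 4 Slit and Robo genes and 6 of the 7 netrin family genes were below 0; of these, Slit2, Slit3, Ntng1 and Unc5c lay above 0 under median scaling and, with Ntn3 and Unc5b, without normalization, where the median of all probes was 0.06 and 0.12. Aged impaired replicate 4 was the lowest of the 17 arrays for 9 of the 34 genes. Without it, Slit2 and Slit3 went from -0.06 and -0.07 to -0.01 and -0.01, while Robo1 and Robo2 were at -0.27 and -0.15. The same 6 netrin family genes then lay between -0.12 (Unc5b) and -0.01 (Ntng1). The standard errors ranged from 0.068 (Unc5c) to 0.25 (Unc5a), so that the 95% confidence interval of Unc5c reached from -0.22 to 0.07 and that of Unc5a from -0.70 to 0.35.

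**Figure D5:**
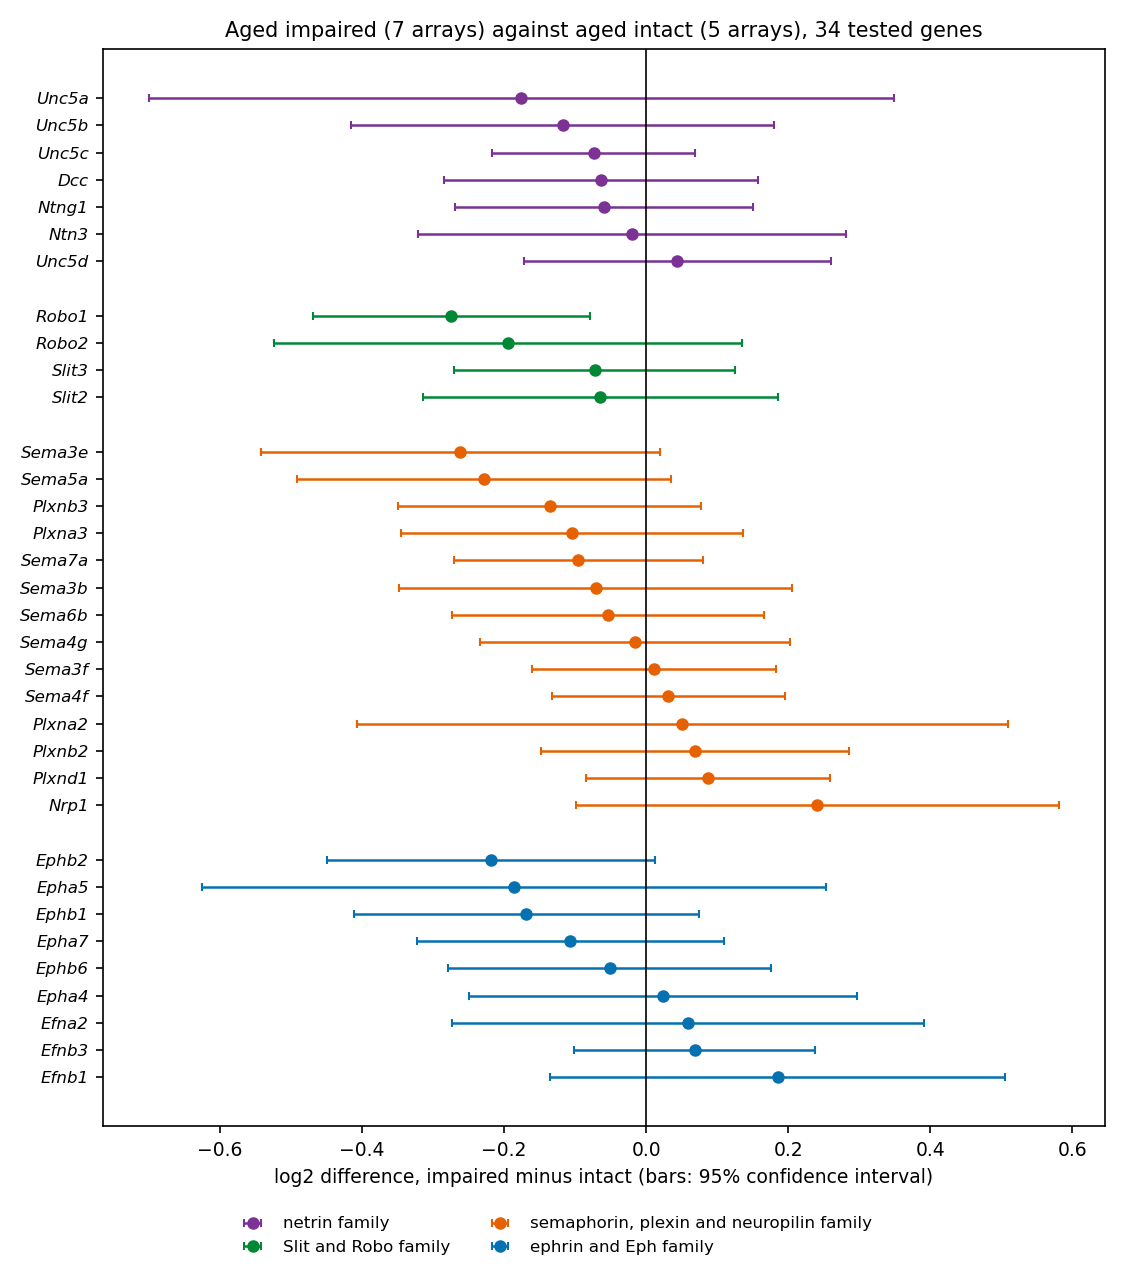
Log2 difference between 7 aged impaired and 5 aged intact arrays (horizontal axis) for the 34 tested guidance genes, grouped by family, with 95% confidence intervals from the limma fit. The interval of Robo1 (-0.47 to -0.08) is the one that does not include 0, and no gene was called.

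Partners and effectors of guidance signalling, such as cell adhesion molecules that act as co-receptors and the cytoplasmic proteins that carry the signal to the cytoskeleton, were followed as a list of 71 genes. Of these, 52 had a probe and 47 were tested. None was called in any of the 4 comparisons. For aged against adult rats 5 had an unadjusted p below 0.05 (10.6%, against 18.6% of all probes), 2 higher and 3 lower, 24 lay above 0 and 23 below, and the median was 0.01. Their mean log2 level was 7.94 on adult replicate 4 and 8.01 to 8.17 on the other arrays.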

How the data were processed

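RNA of hippocampal synaptosomes was hybridized to Illumina RatRef-12 arrays, and the authors read the arrays with GenomeStudio 1.0.6. The deposited values are the signal intensity of each probe, which was neither background-subtracted nor normalized, and a detection p-value deposited beside it. The methods of the study add average normalization and background subtraction, which the deposited intensities do not hold. Background was estimated from control signals inferred from the detection p-values (825 control bead types) by a robust mean and SD, since the plain SD of 120 to 225 per array was far above the robust SD of 5.20 to 10.8. The steps of neqc followed with limma 3.58.1 in R 4.3.3: normexp correction, an offset of 16, quantile normalization and log2. Probes with a detection p-value below 0.05 on all arrays of at least 1 group were kept, as in the methods. 1 linear model of the 3 groups was fitted over 10457 probes, aged rats being the mean of 12 arrays, with Benjamini-Hochberg adjustment over all probes. Probes took their gene from the platform annotation updated through RefSeq (13192 of 22226 had 1 symbol and 9034 none), and a gene with several tested probes was given by the brightest. The number of arrays limits the precision.

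Named genes were those past the threshold, up to 4 per family with the smallest p for aged against adult rats, the 4 with the lowest p for aged impaired against aged intact rats, the 6 with the highest mean and both ends of the aged differences. The genes, lists and tests were chosen with earlier results of these data known. The script was tested on simulated data. Alternatives were the background, normalization, offset, filter, array weights, replicate block, groups in the fit, probe choice, the test of the methods and each array left out in turn. Astrocyte, oligodendrocyte precursor and meningeal markers were followed as lists as well: 0 of 8, 1 of 5 (Bcas1, 0.46 higher) and 0 of 8 were called for aged against adult rats, as were 0 of 18 neuron and synapse markers and 0 of 5 endothelial and mural markers.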

Additional observations from a re-analysis of the deposited data

Results flagged for a closer look

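Within the groups, 8 values of guidance genes lay so far from the rest of their group that the gap exceeded the critical value of Dixon's test, out of 102 sets of values. Chance passes about 1 set in 20. Adult replicate 4 gave 3 of the 8, all low: Efna2 at 4.48, Nrp1 at 9.76 and Plxna2 at 6.56. Ntng1 was high on adult replicate 2, at 9.52, and low on aged impaired replicate 4, at 8.94. Efnb1 was low on aged impaired replicate 3, at 6.87. Sema4f was low on aged intact replicate 2, at 11.13, where the other 4 arrays of the group lay between 11.20 and 11.22. Sema5a was high on aged intact replicate 5, at 6.22.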

How the results depend on the processing

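Unc5c was the 1 guidance gene called for aged against adult rats. The count of lower genes was 0 with scaling to the median, with no normalization, with the replicate block (Unc5c -0.25, adjusted p = 0.163) and in each of the 17 fits without 1 array (0 to 0; adjusted p 0.0538 to 0.139). For aged impaired against adult rats the count of lower genes was 0. It was 1, Unc5c, with the plain background (adjusted p = 0.019), no background correction, an offset of 50, no detection filter or array weights. In the fits without 1 array this count was 0 to 1, the 1 being without aged impaired replicate 1. That gene was not Unc5c, whose adjusted p in these limma fits was 0.0506 to 0.134. The test of the methods, unadjusted with a 1.2-fold limit, gave 1 guidance gene higher and 2 lower in aged intact rats. It gave 4 lower in aged impaired rats and 1 lower, Robo1, between the aged groups. Among all tested probes, 264 passed this test upward and 283 downward for the intact group against adults. For the impaired group against adults, 343 probes passed upward and 266 downward. Between the aged groups, 31 probes passed upward and 31 downward. The median difference of 0.04 was 0.145 with median scaling and 0.246 with no normalization, where the median of all probes moved to 0.08 and 0.18. Among genes named by the rule for their aged difference, signs turned for Slit3 (0.0614 with median scaling), for Efnb3 (0.0181), Ephb6 (0.0293), Sema4f (0.0396), Sema3f (0.0352) and Slit3 (0.162) with no normalization, each below the then median of all probes, and for Robo2 (-0.00077 without aged intact replicate 5; range -0.00077 to 0.111). Among all 34, 3 signs turned with median scaling (also Plxnd1 and Unc5d) and 10 with no normalization (also Ephb2, Plxna3, Plxnd1, Sema5a and Unc5d). The cause was not tested. Counts over all probes for aged against adult rats, 89 higher and 31 lower, were 45 and 57 with the plain background, 150 and 0 with median scaling, 209 and 95 with array weights and 25 and 2 with the replicate block. The lower count was also 57 with no background correction, 58 with an offset of 50, 48 with only the groups compared and 0 with no normalization, and the higher count 57 with no detection filter. Without 1 array the higher count ran from 36 (without adult replicate 5) to 118 (without aged impaired replicate 4) and the lower count from 4 (without adult replicate 4) to 44 (without adult replicate 1). Of 621 values of single genes under the alternatives, 586 kept their direction and side of the threshold. Unc5c alone was called in the main fit, so that for the other genes keeping their side says little. Of the remaining values, 20 lost a call, all of Unc5c for aged against adult rats, 8 gained one and 7 turned sign. Replicate numbers follow the order of the samples, and the labels name no pairing of rats. The replicate block therefore groups arrays by that order alone and adjusts for no known feature of the design. Of 15 pairs of arrays with the same number, 5 had a correlation over 0.1.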
